A study of Mus musculus with 35 samples.

Results

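A group of 10 genes of extracellular matrix turnover was followed in sorted cells of mouse hind paw skin. The group holds 4 matrix metalloproteinases (Mmp2, Mmp3, Mmp9 and Mmp14), 3 proteases of the ADAMTS family (Adamts1, Adamts4 and Adamts5) and 3 tissue inhibitors of metalloproteinases (Timp1, Timp2 and Timp3). They were picked by name as matrix proteases and their inhibitors, and all 10 were present among the 22609 gene symbols of the count tables. The questions were which of the sorted populations carried each transcript and whether its level changed after paclitaxel (PTX), a taxane used against tumours that binds and stabilises microtubules. The 35 libraries came from C57 mice aged 8 to 16 weeks and fell into 9 groups. Immune cells were sorted as CD45-positive cells from wild-type mice, with 4 libraries per group of vehicle females, vehicle males and PTX males. Fibroblasts were sorted as Col1a2-positive cells from Col1a2-cre-ER/tdTom mice, in the same 3 groups of 4. Keratinocytes were sorted as K5-positive cells from K5-cre-ER/tdTom mice, with 4 libraries from vehicle females, 3 from vehicle males and 4 from PTX males. PTX was given by intraperitoneal injection at 2 mg/kg, in 2 injections with a day between them, and the paw skin was collected 6 days after the second injection. No PTX females were among the samples, and each population came from its own mouse line. In the reporter lines the sort follows cells in which the Col1a2 or K5 promoter drove an inducible Cre. The labels do not say whether replicates came from separate mice, so p-values measure the spread between these libraries, which may be technical.

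Matrix metalloproteinases are zinc-dependent enzymes that are made as inactive precursors and cut collagens and other matrix proteins once activated. MMP14 sits in the cell membrane and, together with TIMP2, activates the gelatinase MMP2. ADAMTS enzymes cut proteoglycans such as aggrecan and versican, and TIMPs bind the active site of metalloproteinases and block it. In skin, fibroblasts of the dermis are the main makers of collagen and of many of these enzymes, and MMP9 is known as a product of neutrophils and macrophages.

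Gene counts ran from 988712 to 20809036 per library, and the lowest belonged to keratinocyte vehicle female 2. Genes with over 10 counts numbered 5956 to 8700 in immune PTX males and 11000 to 12813 in immune vehicle males. Immune vehicle females had 10974 to 11036 such genes. In fibroblasts there were 5360 to 9532 in PTX males and 7010 to 10089 in vehicle males. In keratinocytes there were 7398 to 10211 in PTX males and 4511 to 8846 in vehicle males. Levels below are CPM (gene counts scaled to a common library total), normalised with TMM over all 35 libraries. The markers matched the sorts in the vehicle groups: Ptprc (which encodes CD45) lay at 356 to 718 CPM in immune libraries, Col1a2 at 7737 to 14080 in fibroblast libraries and Krt5 at 3143 to 5956 in keratinocyte libraries. Outside its own population Col1a2 varied with the group. It stood at 469 to 1228 CPM in immune vehicle males, at 7.47 to 44.3 in immune vehicle females and at 61.8 to 243 in immune PTX males. In keratinocytes Col1a2 was at 0.863 to 1.12 CPM in vehicle males, at 3.83 to 24.6 in vehicle females and at 1176 to 2850 in PTX males. The same 4 PTX keratinocyte libraries held Ptprc at 111 to 192 CPM, against at most 3.22 in vehicle keratinocytes, and their Krt5 level was 879 to 3344 CPM. These values stand beside each result on immune cells and keratinocytes that follows.

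Of the 10 genes, 6 had a promoter entry in RefSeq (build GRCm38.p6). Those of Mmp3, Timp1 and Timp2 are shown because these genes had at most 9 counts in any vehicle male keratinocyte library and far more in most PTX keratinocyte libraries, as described further on. Each run gives the 250 bases before the annotated start, 5′ to 3′ on the gene's strand. Capitals mark matches, on either strand, to the AP-1 letters TGANTCA, the GC box GGGCGG or the TATA letters TATAAA. The regions are chr9:7445572-7445821 on the plus strand for Mmp3, chrX:20869916-20870165 on the plus strand for Timp1 and chr11:118355412-118355661 on the minus strand for Timp2.
Mmp3: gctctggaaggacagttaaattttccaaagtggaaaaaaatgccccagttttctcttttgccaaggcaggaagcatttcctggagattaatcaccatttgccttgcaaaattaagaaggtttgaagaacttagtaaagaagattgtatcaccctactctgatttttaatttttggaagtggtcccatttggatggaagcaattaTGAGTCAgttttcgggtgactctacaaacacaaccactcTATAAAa
Timp1: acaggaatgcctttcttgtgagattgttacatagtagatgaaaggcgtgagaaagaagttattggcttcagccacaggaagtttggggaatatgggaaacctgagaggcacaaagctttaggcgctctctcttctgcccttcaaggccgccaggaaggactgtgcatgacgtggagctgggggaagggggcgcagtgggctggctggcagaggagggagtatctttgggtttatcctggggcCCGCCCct
Timp2: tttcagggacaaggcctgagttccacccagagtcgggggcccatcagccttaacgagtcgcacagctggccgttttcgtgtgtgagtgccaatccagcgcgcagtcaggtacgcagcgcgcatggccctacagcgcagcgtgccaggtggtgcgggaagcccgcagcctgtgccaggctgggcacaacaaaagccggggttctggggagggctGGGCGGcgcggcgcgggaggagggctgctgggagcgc
The Mmp3 window holds 1 AP-1 match, TGAGTCA, whose first base lies 46 bases before the start, and a TATA match. The Timp1 and Timp2 windows hold 1 GC box each, read as CCGCCC in Timp1 because it lies on the other strand. Among all 32851 promoter windows of this length, 6.75% held the AP-1 letters, 32.7% the GC box and 12.4% the TATA letters. Of the 6 windows, 5 held a GC box and 0 held the CRE letters TGACGTCA, which 1.55% of all windows held. Letter matches describe the sequence only.

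In vehicle-treated mice, 9 of the 10 transcripts were most abundant in fibroblasts and Mmp9 was most abundant in immune cells. Fibroblasts held 66.7 to 95.7% of the summed mean CPM of the 3 populations for those 9 genes, with the highest shares for Mmp2 (95.7%), Mmp3 (95.6%) and Adamts5 (95%). Immune cells held 98% of Mmp9. The lowest fibroblast shares belonged to Timp1 (68%) and Timp2 (66.7%), with most of the remainder in immune cells.

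**Figure D1:**
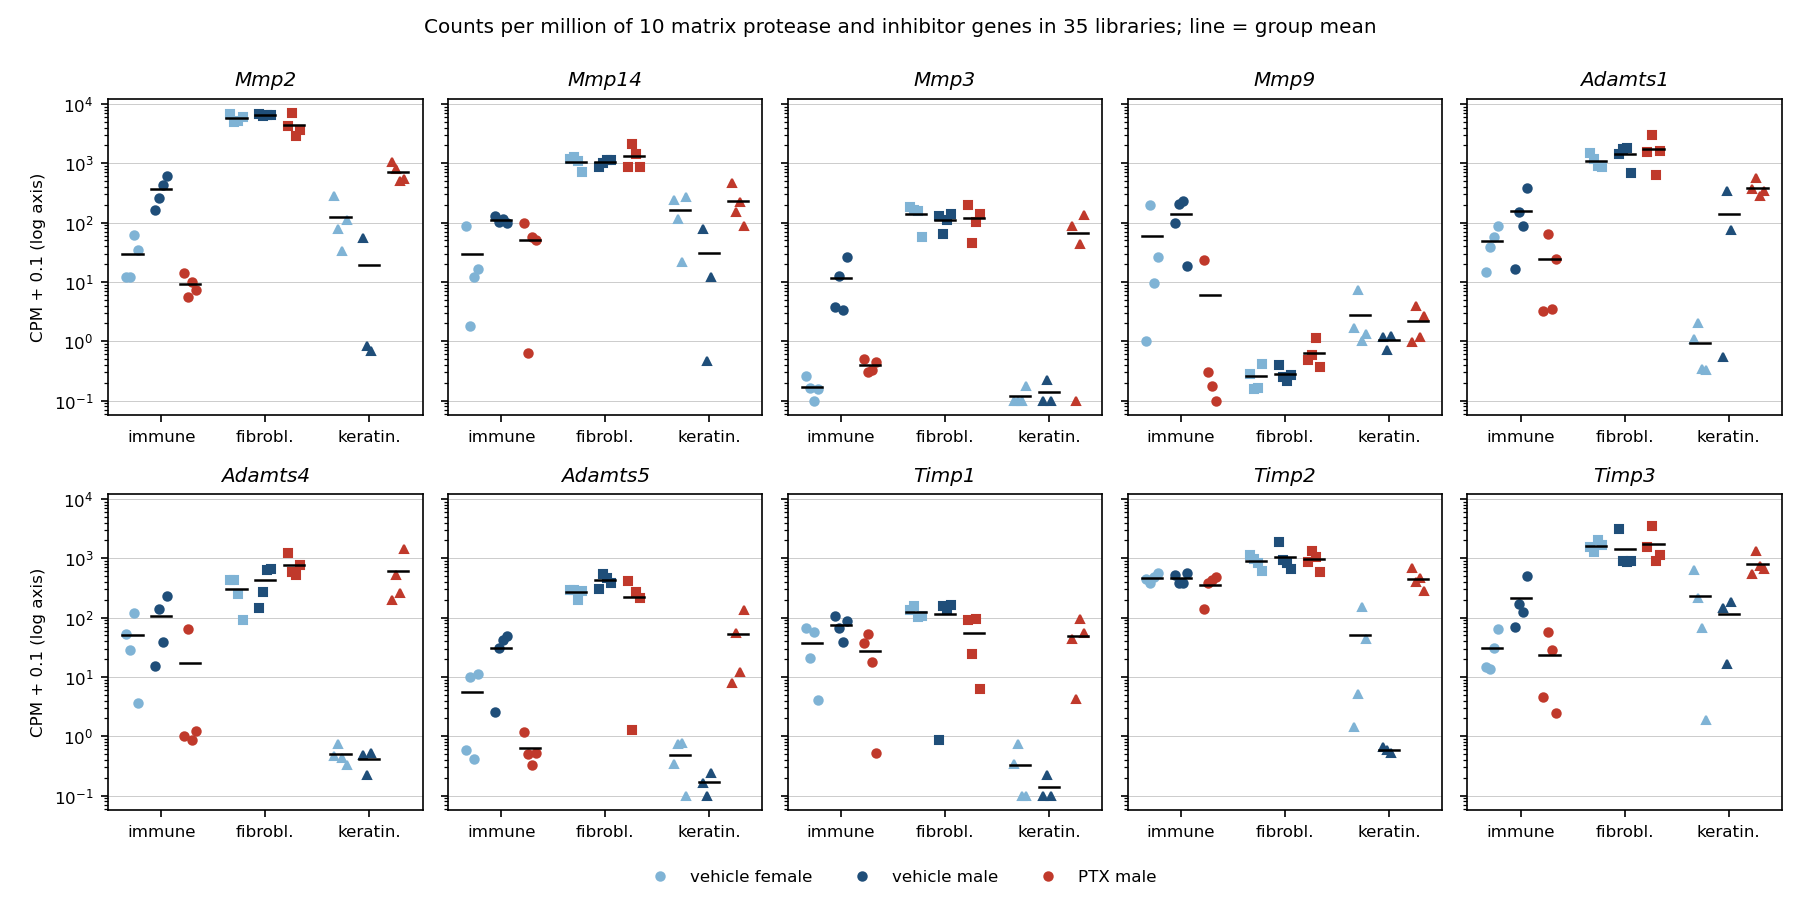
CPM plus 0.1 (log axis) of the 10 genes in each of the 35 libraries, by sorted population (circles immune, squares fibroblast, triangles keratinocyte) and group (colour), with the group mean as a line. In vehicle mice the group means sit highest in fibroblasts for 9 genes and in immune cells for Mmp9. Single libraries of the populations overlap for Timp1, Adamts4 and Mmp9. The PTX keratinocyte points of Adamts4 and Timp2 lie far above those of vehicle males.

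**Figure D2:**
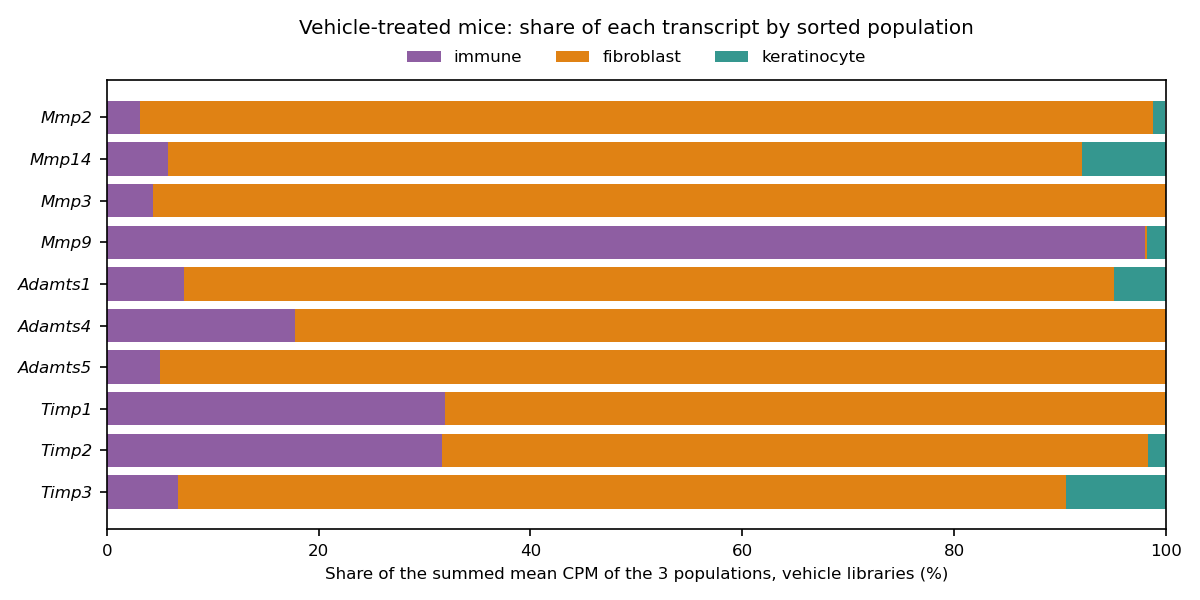
Share of the summed mean CPM of the 3 populations (x axis, percent) held by immune cells, fibroblasts and keratinocytes of vehicle-treated mice, for each of the 10 genes. Fibroblasts hold 95.7% of Mmp2, and immune cells hold 98% of Mmp9.

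Among the gelatinases, which cut denatured collagen, Mmp2 had the highest level of the 10 genes in fibroblasts. Its level in the 8 vehicle fibroblast libraries was lowest at 4950, with a median of 6340 and a highest value of 6840 CPM. In the 8 vehicle immune libraries it ran from 11.8 through a median of 112 to 614 CPM, and in the 7 vehicle keratinocyte libraries from 0.575 through 55.8 to 279 CPM. Every fibroblast library was thus above every library of the other populations. Mmp2 was 5.86 log2 units higher in fibroblasts than in immune cells (SE 0.74, edgeR adjusted p = 1.53e-06) and 6.96 higher than in keratinocytes (SE 0.86, edgeR adjusted p = 8.78e-07). Mmp9, the second gelatinase, showed the opposite order. Its immune libraries ran from 0.908 through a median of 62.7 to 234 CPM, a spread of over 100-fold within the sort, whereas the highest value was 0.317 CPM in fibroblasts and 7.09 CPM in keratinocytes. It was lower in fibroblasts than in immune cells by a log2 difference of -9.01 (SE 1.19, edgeR adjusted p = 2.79e-06).

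Mmp14, the membrane-bound activator of MMP2, lay between 711 and 1280 CPM in vehicle fibroblasts, with a median of 1110. Its highest value was 129 CPM in vehicle immune cells and 272 CPM in vehicle keratinocytes, so the fibroblast libraries did not overlap with the others. Mmp3 encodes stromelysin, which cuts many matrix proteins and activates other MMPs. It was found at 57.9 to 185 CPM in vehicle fibroblasts and at 0 to 25.9 CPM in vehicle immune cells. Vehicle keratinocytes gave 2 counts of Mmp3 in all 7 libraries together.

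The aggrecan-cutting ADAMTS genes followed the fibroblast pattern, with immune cells second for all 3. Adamts1 reached a median of 1310 CPM in fibroblasts, 71.9 in immune cells and 0.988 in keratinocytes. Its keratinocyte libraries were uneven, at 340.7 and 73.6 CPM in vehicle males 2 and 3 and at or below 1.94 CPM in the other 5. Adamts4 had medians of 350 CPM in fibroblasts, 46.1 in immune cells and 0.37 in keratinocytes, where no vehicle library exceeded 0.645 CPM. Its fibroblast libraries, at 91.6 to 663 CPM, overlapped with the immune ones, at 3.55 to 232 CPM. Adamts5 had medians of 300 CPM in fibroblasts, 10.6 in immune cells and 0.144 in keratinocytes.

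Among the inhibitors, Timp1 and Timp2 were spread over fibroblasts and immune cells. Timp2 ran from 613 to 1880 CPM in vehicle fibroblasts and from 375 to 563 CPM in vehicle immune cells, the lowest ratio of highest to lowest value of the 10 genes in those cells. Timp1 ran from 4.06 to 108 CPM in immune cells and from 102.6 to 163 CPM in 7 of the 8 fibroblast libraries, with 0.782 CPM in the 8th. Neither passed the test between fibroblasts and immune cells: the log2 difference was 1.18 for Timp1 (95% interval -0.48 to 2.83, edgeR adjusted p = 0.377) and 1.07 for Timp2 (95% interval 0.01 to 2.14, edgeR adjusted p = 0.161). Timp3, which binds to the matrix itself, had a median of 1400 CPM in fibroblasts, 67.2 in immune cells and 143 in keratinocytes. Its reads could not be told apart from those of Syn3 on the opposite strand over 21.3% of its exon bases, since it is not known from the sources used here whether counting used the strand.

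Across all genes, 21.2% differed between vehicle fibroblasts and immune cells, 31.1% between fibroblasts and keratinocytes and 32.1% between immune cells and keratinocytes. Of the 10 genes, 7 were higher and 1 (Mmp9) was lower in fibroblasts than in immune cells, with a median log2 difference of 4.01 against -0.05 over all genes tested. Against keratinocytes, 9 were higher in fibroblasts and Mmp9 was lower. In this comparison Mmp9 did not pass in either sex alone (edgeR adjusted p = 0.17 in males and 0.109 in females), Mmp14 and Timp3 did not pass in females alone (0.0619 and 0.0833) and Adamts1 did not pass in males alone (0.11). Between immune cells and keratinocytes 7 were higher in immune cells, and Mmp2, Mmp14 and Timp3 did not pass. Mmp2 passed in opposite directions by sex: the log2 difference of immune cells minus keratinocytes was 4.26 in males alone (edgeR adjusted p = 0.0353) and -2.14 in females alone (edgeR adjusted p = 0.0302). It also passed over both sexes without keratinocyte vehicle male 1, at 3.52. In females alone Mmp3 and Mmp9 did not pass (edgeR adjusted p = 0.603 and 0.0674), and in males alone Adamts1 did not (0.946). With vehicle males alone, 4 of the 10 genes differed between fibroblasts and immune cells, with the share of all genes in that fit not given here. There Mmp3 (edgeR adjusted p = 0.127), Mmp14 (0.0541), Adamts1 (0.134) and Adamts4 (0.163) no longer passed. Adamts4 stood at the threshold in females alone (edgeR adjusted p = 0.05). On a scale that allows genes to be compared, CPM per kilobase of exon in vehicle male fibroblasts, Mmp2 stood first at 1920, followed by Timp2 at 274 and Adamts1 at 266, and Mmp9 stood last at 0.0512.

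After PTX, immune libraries held less Mmp2 than those of vehicle males. The 4 vehicle males had 163, 261.5, 434 and 614 CPM and the 4 PTX males 14.2, 5.5, 9.94 and 7.12 CPM. The groups did not overlap, and each PTX value was over 10-fold under the lowest control. Mmp2 fell by 5.34 on the log2 scale (SE 0.69, edgeR adjusted p = 0.00207). Vehicle females, which received no PTX, were also low, at 11.8, 12.2, 61.3 and 34.4 CPM. Females differed from vehicle males by a log2 difference of -3.66 (SE 0.63, edgeR adjusted p = 0.0281), a comparison that shares its control libraries with the PTX one. Against vehicle females as controls, the log2 difference of PTX males was -1.69 and did not pass. Nor did the comparison with vehicle males pass under voom quality weights (log2 difference -5.30, limma adjusted p = 0.269). The call for sex was lost when any of 6 of the 8 libraries was left out, with adjusted p up to 0.109, and the edgeR call for PTX against vehicle males stood in all 8 such fits.

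Mmp2 was the only one of the 10 genes to pass in immune cells, where 5.51% of all genes tested changed with PTX (116 higher, 553 lower). The other 9 were not called, although all 10 log2 changes were below 0, with a median of -3.00 against 0.10 over all genes. Groups did not overlap for 5 of the 10 (Mmp2, Mmp3, Mmp14, Timp3 and Adamts5), against 14.0% of all genes. Adamts5 was at 2.51, 30.2, 41.5 and 48.8 CPM in vehicle males and at 1.07, 0.397, 0.233 and 0.429 CPM in PTX males (log2 difference -5.86, SE 1.64, edgeR adjusted p = 0.0538). Mmp3 had 3.71, 12.6, 3.33 and 25.9 CPM in vehicle males and 3 to 5 counts in each PTX library (log2 difference -5.25, SE 1.54, edgeR adjusted p = 0.0613). Both lay just outside the threshold against vehicle males. Vehicle females, without PTX, had 0 to 3 counts of Mmp3 per library and 0.309 to 11.3 CPM of Adamts5. Against vehicle females the log2 change of Mmp3 in PTX males was 1.97 and did not pass.

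Mmp9, the immune gelatinase, had 98.7, 204.9, 234 and 18.4 CPM in immune vehicle males. In PTX males it had 23.1, 0.199, 0.0776 and 0 CPM, so 1 PTX library lay above the lowest control. The log2 difference was -4.58 (95% interval -8.83 to -0.34, edgeR adjusted p = 0.199), and without PTX male 1 it was -10.40 with an adjusted p of 0.0208. Vehicle females ran from 0.908 to 197.9 CPM. The summed level of 6 neutrophil markers was 76.9 to 2710 CPM in vehicle males, 44 to 723 in vehicle females and 222 to 1629 in PTX males. S100a8, a calcium-binding protein abundant in neutrophils, had 583, 1400, 498 and 21.4 CPM in vehicle males and 541.5, 84.3, 209 and 150.4 CPM in PTX males. It was lowest among vehicle males and highest among PTX males in the same libraries as Mmp9. Cxcr2, a chemokine receptor of neutrophils, had 48.5, 39.3, 52.5 and 0 CPM in vehicle males and 0.082, 35.3, 0 and 0.172 CPM in PTX males. It too was lowest in vehicle male 4, but among PTX males it was high in library 2, where Mmp9 was at 0.199 CPM. Macrophage markers summed to 11230 to 14980 CPM in vehicle males, 11900 to 20750 in vehicle females and 15040 to 23680 in PTX males. The part of neutrophils and macrophages in the Mmp9 values was not tested. Timp2 had the smallest log2 difference of the 10 genes in immune cells, at -0.38 (95% interval -1.07 to 0.31, edgeR adjusted p = 0.684).

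Markers of other cell types moved with Mmp2 in the immune sort. The summed level of 10 fibroblast markers was 4684 to 10400 CPM in vehicle males, 249.6 to 1471 in PTX males and 101 to 414 in vehicle females, and 7 of the 10 fell with PTX. Endothelial markers summed to 111 to 671 CPM in vehicle males and 0.343 to 66.2 in PTX males, and 5 of 9 fell. Markers of pericytes and smooth muscle summed to 382 to 2432 CPM in vehicle males and 6.4 to 43.8 in PTX males, and 4 of 8 fell. Pecam1, an endothelial adhesion receptor, was at 0.246, 0, 0.31 and 0.0858 CPM in PTX males. Basal keratinocyte markers summed to 76.9 to 2319 CPM in vehicle males and 0.776 to 109 in PTX males, and 3 of 7 fell. All 6 mast cell markers and 3 of 6 dendritic cell markers rose against vehicle males. Mast cell markers summed to 1246 to 2552 CPM in vehicle males, 2937 to 7281 in PTX males and 5433 to 8095 in vehicle females. Dendritic cell markers summed to 7775 to 13110, 23260 to 46110 and 9322 to 17260 CPM in the same order. T cell markers summed to 42.5 to 174 CPM in vehicle males, 197 to 381 in PTX males and 59.8 to 287 in vehicle females. In vehicle females endothelial markers summed to 56.5 to 157 CPM and basal keratinocyte markers to 23.8 to 72.3. Their markers of pericytes and smooth muscle summed to 170 to 793 CPM. The level of Ptprc did not pass (log2 difference 0.41, edgeR adjusted p = 0.423). Set against the fibroblast collagen Col1a2, vehicle males had 24.3 to 55.8 counts of Mmp2 per 100 counts of Col1a2, PTX males 2.93 to 16.3 and vehicle females 27.5 to 519. Fibroblasts themselves had 47.9 to 83.6 in vehicle males. The part of these other cells in the result was not tested, and in sorted bulk samples fewer cells of a type and less RNA per cell cannot be told apart.

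**Figure D3:**
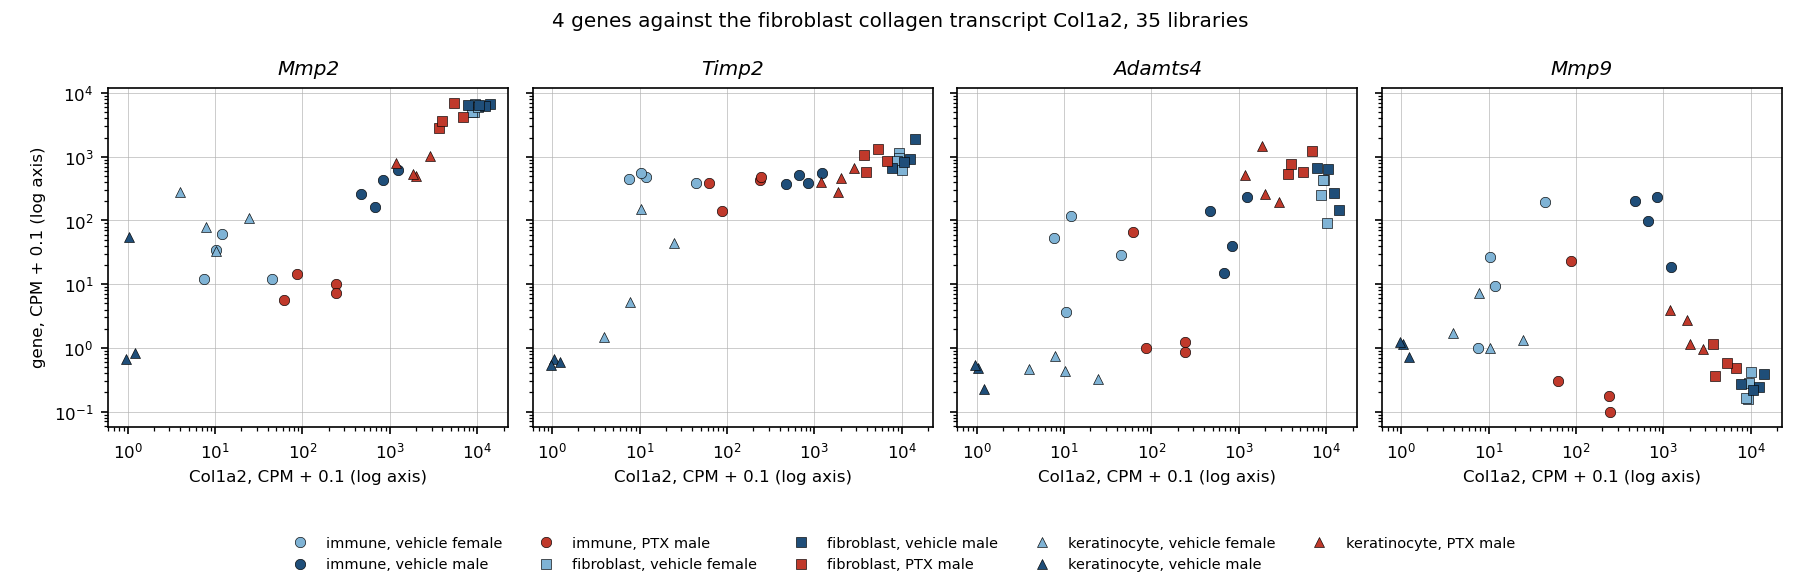
CPM plus 0.1 (log axes) of Mmp2, Timp2, Adamts4 and Mmp9 (y axis) against Col1a2 (x axis) in the 35 libraries, by population (marker shape) and group (colour). PTX keratinocyte libraries sit at 1176 to 2850 CPM of Col1a2, and immune libraries keep Timp2 between 140 and 563 CPM over the whole range of Col1a2.

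In fibroblasts none of the 9 genes tested passed with PTX, by edgeR or by any of the alternatives run. Here 0.0184% of all genes were called (1 higher, 1 lower), whereas an unadjusted p under 0.05 was found for 876 genes, Mmp2 among them. Mmp2 was at 6744, 6292, 6385 and 6465 CPM in vehicle males and at 4169, 6926, 2863 and 3615 CPM in PTX males. Of the PTX libraries, 3 lay below all controls and 1 lay above them (log2 difference -0.58, 95% interval -1.10 to -0.07, edgeR adjusted p = 0.504). Adamts4 was at 146, 270.3, 633 and 663 CPM in vehicle males and at 1224, 579, 530.3 and 774 CPM in PTX males, so the groups overlapped (log2 difference 0.83, 95% interval -0.27 to 1.93, edgeR adjusted p = 0.822). The other log2 differences lay between -1.14 (Timp1) and 0.30 (Mmp14), 5 of the 9 were above 0 and the median was 0.09, against 0.08 over all genes. None of the 9 genes had groups without overlap, against 3.06% of all genes. Mmp9 was not tested because it stayed at or below 1.05 CPM. A few single libraries stood far from their group, among them fibroblast vehicle male 1, at 0.782 CPM of Timp1 and 3108 CPM of Timp3, and PTX male 2, at 1.2 CPM of Adamts5 where the other 3 had 217 to 412.

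Relative to Col1a2, which was at 7737 to 14080 CPM in vehicle males and 3671 to 6828 CPM in PTX males (log2 difference -1.21, edgeR adjusted p = 0.106), fibroblasts had 1.04 to 8.57 counts of Adamts4 per 100 of Col1a2 in vehicle males and 10.7 to 19.8 in PTX males. Vehicle females had 0.906 to 4.65. The PTX libraries thus lay above both vehicle groups on this ratio, on which no test was run. Adamts1 was apart in the same way, at 17.4 to 55.7 in PTX males, 8.75 to 16.9 in vehicle males and 8.39 to 15.8 in vehicle females. The mean ratio was also higher in PTX than in vehicle males for Mmp14 (28.3 against 9.91), Timp2 (20.4 against 9.25) and Timp3 (35.3 against 12.3). A higher ratio was thus not particular to Adamts4. The mean ratio was 90 against 60.7 for Mmp2, 2.52 against 1.07 for Mmp3 and 4.73 against 3.99 for Adamts5. For Timp1 it was 1.14 against 1.16. The part of the Col1a2 level in these ratios was not tested. Rgs5, a pericyte marker, was at 119 to 2365 CPM in PTX fibroblast libraries, 74.1 to 94.9 in vehicle males and 105 to 331 in vehicle females. The summed level of 8 markers of pericytes and smooth muscle was 389 to 4281 CPM in PTX males and 406.5 to 1030 in vehicle males, with 7 of 8 log2 differences above 0 (median 1.56) and none called. Their part in these values was not tested. Collagen Col3a1 was the matrix gene that fell in this population (log2 difference -1.62, SE 0.26, edgeR adjusted p = 0.0359).

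In keratinocytes Adamts4 and Timp2 rose with PTX. Adamts4, an aggrecan-cutting protease, had 6, 1 and 6 counts in the 3 vehicle male libraries, or 0.376, 0.124 and 0.432 CPM. The 4 PTX libraries had 196, 514, 259.6 and 1448 CPM. Every PTX library was thus over 100-fold above every vehicle male, and the 4 vehicle females were as low as the males, at 0.231 to 0.645 CPM. The log2 change was 10.74 (SE 1.15, edgeR adjusted p = 2.49e-05), and the ratio of summed counts was 1470 (95% interval 860 to 2760, counting error only). The call held in all 17 alternatives run, which include leaving out each of the 7 libraries.

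Timp2, which blocks metalloproteinases and takes part in MMP2 activation, had 9, 4 and 6 counts in vehicle males, or 0.564, 0.496 and 0.432 CPM. The PTX males had 675, 401.3, 460 and 283 CPM. The groups were far apart, with a log2 change of 9.73 (SE 1.61, edgeR adjusted p = 0.00241) and a ratio of counts of 954 (95% interval 611 to 1590, counting error only). Vehicle females stood between them, at 1.36, 5.16, 148.9 and 44.2 CPM. With vehicle females as controls the log2 change was 3.19 and did not pass, which left 16 of 17 alternatives with the call.

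The other 8 genes did not pass in keratinocytes. Mmp2 came closest, with 55.8, 0.744 and 0.575 CPM in vehicle males and 1044, 788, 504.6 and 533 CPM in PTX males (log2 difference 5.13, SE 1.30, edgeR adjusted p = 0.0583). Without vehicle male 1, its highest control, the log2 change was 10.01 with an adjusted p of 8.32e-05. Vehicle females had 32.5 to 279 CPM of Mmp2. Mmp3 was at 88.7, 0, 43.3 and 134 CPM in PTX males and gave 1 count in the vehicle males, a ratio of 2430 (95% interval 437 to 96200). Its PTX libraries were not alike, since PTX male 2 had no count at all in 8866281. Timp1 was at 43.9, 4.22, 96.1 and 54 CPM in PTX males against 1 count in vehicle males (ratio 2120, 95% interval 380 to 83800). Adamts5 was at 7.94, 55.2, 12.2 and 132 CPM against 3 counts (ratio 517, 95% interval 177 to 2510). The intervals of these ratios hold counting error only. In the edgeR fit the 95% interval of the log2 change was 2.86 to 17.85 for Mmp3 and 2.58 to 17.28 for Timp1. For Adamts5 it was 2.44 to 15.98. The edgeR adjusted p was 0.205 for Mmp3 and 0.208 for both Timp1 and Adamts5.

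Mmp14 and Timp3, like Mmp2, were already present in most vehicle keratinocyte libraries, and Adamts1 only in vehicle males 2 and 3. Vehicle male 2, with the most Adamts1, also had 261 CPM of Pecam1, against at most 2.58 in the other vehicle keratinocyte libraries. The part of endothelial cells in its Adamts1 level was not tested. Mmp14 had 78.1, 0.372 and 12.1 CPM in vehicle males and 88.4 to 461 CPM in PTX males, with vehicle females at 21.3 to 272 (edgeR adjusted p = 0.303). Timp3 had 143, 16.4 and 185 CPM in vehicle males and 549 to 1304 CPM in PTX males (edgeR adjusted p = 0.245). Adamts1 lay at 281.6 to 573 CPM in PTX males and at 0.439 to 340.7 CPM in vehicle males (edgeR adjusted p = 0.811). Vehicle females had 0.231 to 1.94 CPM of Adamts1, and against them the change passed, at 9.14 on the log2 scale. Mmp9 stayed at 0.859 to 3.9 CPM in PTX males.

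Of all genes tested in keratinocytes, 1.45% changed with PTX (126 higher, 33 lower). All 10 log2 changes of the matrix genes were above 0, with a median of 7.17 against 0.07 over all genes. The median was 6.30 with the 3 genes that rest on 1 to 3 control counts set at the lower bound of their ratio. That bound holds counting error only, so this median does not allow for the spread between libraries. Groups did not overlap for 7 of the 10, against 13.2% of all genes.

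**Figure D4:**
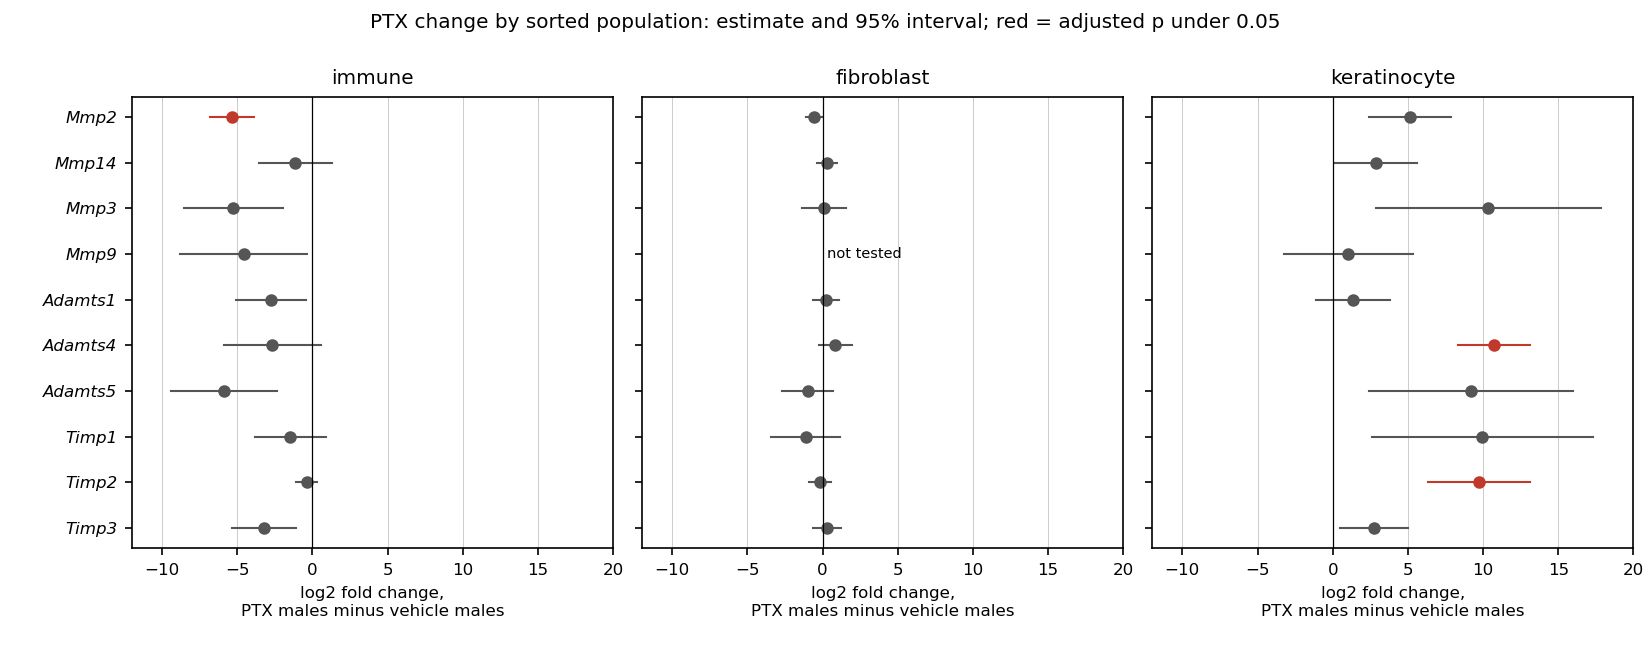
Log2 fold change of PTX males against vehicle males (x axis) for each gene in the 3 sorted populations, with the 95% interval as a bar and genes with an edgeR adjusted p under 0.05 in red. Red points are Mmp2 at -5.34 in immune cells and Adamts4 at 10.74 and Timp2 at 9.73 in keratinocytes.

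Markers of fibroblasts, vessels and immune cells moved with these genes in the keratinocyte sort. The summed level of 10 fibroblast markers was 163 to 516 CPM in vehicle males, 213 to 1225 in vehicle females and 12450 to 16200 in PTX males, and 6 of the 10 rose. Endothelial markers summed to 0.564 to 261.5 CPM in vehicle males and 1565 to 2496 in PTX males, and 7 of 9 rose. Markers of pericytes and smooth muscle summed to 41 to 851 CPM in vehicle males, 131.5 to 499 in vehicle females and 1543 to 3106 in PTX males. General immune markers summed to 8.27 to 46 CPM in vehicle males, 10.6 to 128 in vehicle females and 764 to 1081 in PTX males. Basal keratinocyte markers summed to 16210 to 22740 CPM in vehicle males and 2776 to 10470 in PTX males. Krt5, the keratin whose promoter drives the Cre, fell by 1.49 on the log2 scale (SE 0.32, edgeR adjusted p = 0.02). Per 100 counts of Col1a2, PTX keratinocytes had 25.2 to 67 counts of Mmp2, where vehicle male fibroblasts had 47.9 to 83.6. For Timp2 the ratio was 15.3 to 34.1 in PTX keratinocytes, 7.39 to 13.3 in vehicle male fibroblasts and 12.6 to 29 in PTX fibroblasts. For Adamts4 it was 6.88 to 78.4 in PTX keratinocytes and 10.7 to 19.8 in PTX fibroblasts. The part of other cell types in these changes was not tested.

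The PTX changes themselves differed between populations. Against fibroblasts, the change in immune cells was lower for Mmp2 (log2 difference of fibroblasts minus immune cells 4.65, SE 0.64, edgeR adjusted p = 3.05e-05) and for Mmp3 (5.16, SE 1.29, edgeR adjusted p = 0.021), where 3.51% of all genes differed. The difference for Mmp3 was lost with vehicle males and females together as controls, with an adjusted p of 0.666, and without immune vehicle male 4, with an adjusted p of 0.0506. Between fibroblasts and keratinocytes 6 of the 10 genes differed, all with the higher change in keratinocytes, against 3.31% of all genes: Adamts4, Timp2, Adamts5, Mmp3, Timp1 and Mmp2. The size was -9.86 for Adamts4 (SE 1.17, edgeR adjusted p = 9.78e-07) and -9.85 for Timp2 (SE 1.36, edgeR adjusted p = 1.26e-05). The difference for Timp1 was lost without keratinocyte vehicle male 1 or 3, with an adjusted p of up to 0.0632. Between immune cells and keratinocytes 7 of the 10 differed, against 9.60% of all genes, namely those 6 and Timp3. The values ran from -5.79 for Timp3 (edgeR adjusted p = 0.0264) to -15.53 for Mmp3 (edgeR adjusted p = 0.00738). The call for Timp3 was lost without immune vehicle male 4, keratinocyte vehicle male 1 or keratinocyte vehicle male 2, with adjusted p up to 0.0687. For Mmp3, Timp1 and Adamts5 the keratinocyte side rests on 1 to 3 counts in the vehicle males, so the sizes are not well set. The 3 tests of differences between populations share libraries.

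Few of these genes were called between vehicle females and males. In immune cells 1 of the 10, Mmp2, was called, against 0.354% of all genes. An unadjusted edgeR p under 0.05 was found for Mmp2, Mmp3 and Timp3, and for 499 of 12131 genes tested. Groups did not overlap for these and for Mmp14, against 856 of all genes. Every log2 difference was below 0, down to -0.0073 for Timp2, against a median of 0.0035 over all genes. These vehicle males are also the controls of the PTX test. In fibroblasts 0 of the 9 tested were called, against 0.0184%, and none had an unadjusted edgeR p under 0.05, which 298 of 10857 genes had. In keratinocytes 0 of 10 were called by edgeR, against 0.00914%. DESeq2 called 2 there, and 3 had an unadjusted edgeR p under 0.05: Mmp2, Timp2 and Adamts1. Over all genes tested, 877 of 10939 had such a p.

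Other genes of matrix proteolysis were tested with PTX as well. Over all genes, 5.51% passed in immune cells, 1.45% in keratinocytes and 0.0184% in fibroblasts. The lists of further MMPs and ADAMTS genes are short, so their counts do not set them apart from these shares. In immune cells 0 of 7 tested further MMPs passed and 1 of 13 further ADAMTS and ADAMTS-like genes, Adamts2, the procollagen-trimming protease, fell (log2 difference -5.18, SE 1.29, edgeR adjusted p = 0.0356). Of 7 genes for MMP activation and clearance, Thbs2, a matricellular protein that helps clear MMP2, fell from 47.5 to 107 CPM in vehicle males to 0.728 to 1.89 CPM in PTX males (edgeR adjusted p = 0.0103). Furin, which activates membrane-type MMPs, rose from 161 to 248 CPM to 398 to 706 CPM (log2 difference 1.30, SE 0.29, edgeR adjusted p = 0.0224). Of 12 matrix substrates, Fbn1, Dcn and Col1a2 fell. In keratinocytes 0 of 5 further MMPs and 0 of 8 further ADAMTS genes passed. Cst3, the cathepsin inhibitor cystatin C, rose from 355.5 to 953 CPM to 2000 to 3731 CPM (edgeR adjusted p = 0.00387). Ctsk, which encodes the collagen-cutting cathepsin K, was at 0 to 0.251 CPM in vehicle males and at 120.2 to 323 CPM in PTX males (edgeR adjusted p = 0.0309). Among 12 matrix substrates 5 rose, with Col1a2 and Lum in front. In fibroblasts 1 gene over all these lists passed, Col3a1.

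The genes whose pattern over the 35 libraries was most like that of the genes called with PTX were found by the Pearson correlation of log2(CPM + 1), among 12912 genes. For Mmp2 they were Col5a2 (r = 0.941), Tgfb2 (0.938) and Efemp1 (0.933). For Adamts4 they were Crispld2 (0.955), Procr (0.953) and Pcolce (0.92), and for Timp2 they were Irf1 (0.92), Rhob (0.914) and Cfb (0.914). The libraries share 3 populations and the values are a description, with no test. Among the 10 genes, Mmp2 went with Mmp14 (r = 0.89) and Mmp3 (0.867), and Mmp9 went with none of the others (r from -0.351 to 0.0828).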

How the data were processed

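Stranded mRNA libraries of the sorted cells were read from a single end over 50 bases, per the labels' protocols. The submitters' processing notes name bcl2fastq, TopHat2, HTSeq and the mouse build mm9. Which tool versions, gene annotation and strand option were used is not given in the sources used here. What the authors deposited are raw read counts per gene symbol. HTSeq lines for reads in no gene (10.4 to 31% of reads) or with no unique place (34.9 to 60.9%) were left out.

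The main test was edgeR's robust quasi-likelihood F-test (edgeR 4.0.16 under R 4.3.3, TMM scaling after filterByExpr, two-sided, Benjamini-Hochberg over all genes tested, threshold 0.05), with 1 coefficient per group. PTX and sex were tested within a population, populations over all vehicle libraries, and differences between PTX changes by interaction. SE was taken from the F statistic. Log2 fold changes come from the fit and can differ slightly from ratios of the printed CPM. Alternatives were RLE scaling, no filter, DESeq2 1.42.0, voom quality weights in limma 3.58.1, a replicate block, only the 2 groups compared, other vehicle controls, 1 sex for populations, and leaving out each library. Library-size scaling and the fit without keratinocyte vehicle female 2 were chosen after seeing the data. The tests were tested on simulated data in which the spread of each gene was capped. Genes with a spread above the cap were simulated as less variable than measured, so the simulation does not speak to them.

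The 10 genes, the gene lists and the naming rule (all 10 genes, up to 4 passing list genes per direction with the lowest p, set marker genes, and the 3 most alike genes) were chosen with earlier results of these data known. Cxcr2 was named after its values were seen. Exon lengths and overlaps come from GENCODE M21 (GRCm38), another build than the reads'. No 2 libraries agreed within counting noise.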

Additional observations from a re-analysis of the deposited data

Results flagged for a closer look

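Of 80 combinations of a gene and a group with 4 libraries, 8 held a library far from the other 3 by Dixon's criterion on log2(CPM + 1), where chance flags about 1 in 20. In fibroblasts these were Mmp3 in vehicle female 4 (57.9 CPM, others 154 to 185), Timp1 in vehicle male 1 (0.782, others 133 to 163), Timp3 in the same library (3110, others 868 to 912) and Adamts5 in PTX male 2 (1.2, others 217 to 412). In immune PTX males these were Mmp9 in library 1 (23.1 CPM, others 0 to 0.199), Mmp14 in library 2 (0.53, others 50.5 to 96.5) and Adamts4 in library 2 (65.3, others 0.776 to 1.12). Immune PTX male 2 thus stood alone in both a protease that was low and one that was high. In keratinocytes 1 count of Mmp3 in vehicle female 4 (0.0769 CPM, others 0) met the criterion and is a single read.

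The PTX changes differed between populations in 15 tests, given as log2 differences from edgeR. Fibroblasts minus immune cells gave 4.65 for Mmp2 and 5.16 for Mmp3. Fibroblasts minus keratinocytes gave -5.66 for Mmp2, -10.41 for Mmp3, -11.24 for Timp1, -9.85 for Timp2, -9.86 for Adamts4 and -10.13 for Adamts5. Immune cells minus keratinocytes gave -10.38 for Mmp2, -15.53 for Mmp3, -11.41 for Timp1, -9.91 for Timp2, -5.79 for Timp3, -13.21 for Adamts4 and -14.96 for Adamts5.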

How the results depend on the processing

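Counts of the 10 genes called moved by over 1.5 times in these settings. The share of all genes called under each alternative is not given here, so these counts do not compare the 10 genes with other genes. For PTX in immune cells (1 called) DESeq2 called 6, only the 2 groups compared 2, library-size scaling 2, voom 0 and vehicle females as controls 0, and leaving out a library gave 1 to 3. For PTX in keratinocytes (2 called) DESeq2 called 6 and vehicle males and females together as controls 7. For sex, DESeq2 called 2 in immune cells (1 called) and leaving out a library 0 to 1, and in keratinocytes (0 called) no filter called 1, DESeq2 2 and leaving out a library 0 to 2. Vehicle males alone gave 4 for fibroblasts against immune cells (8 called). For the PTX difference of fibroblasts and immune cells (2 called) DESeq2 called 6, joint vehicle controls 1 and leaving out a library 1 to 5.

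Signs turned in these genes, which did not pass in the main comparison. In immune cells vehicle females as controls gave log2 changes of 1.97 for Mmp3 and 0.84 for Mmp14. In fibroblasts Mmp3 (0.09) was at -0.008 with the replicate block, -0.14 with joint and -0.36 with female controls, and at -0.29 to 0.39 when a library was left out. Mmp14 was at -0.14 with voom and at -0.0202 to 0.45, Timp2 at 0.035 with RLE and DESeq2 and at -0.39 to 0.20, Timp3 at -0.0018 with female controls and at -0.27 to 0.96, and Adamts1 at -0.22 with voom and at -0.19 to 0.49. In keratinocytes Mmp9 was at -0.29 with female controls. For immune cells minus keratinocytes Mmp2 passed at -2.14 in females alone and, the other way, at 4.26 in males alone. Mmp14 was at 1.88 and Timp3 at 0.90 in males alone, with Mmp14 at -1.06 to 0.83 when a library was left out. The causes were not tested.

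Replicate numbers do not pair the libraries: deviations of same-numbered libraries correlated at -0.0564 to 0.0982. The replicate block gave 1, 0 and 3 called genes for PTX in immune cells, fibroblasts and keratinocytes, where the third was Mmp2 (log2 change 7.50). It lost Timp3 between immune cells and keratinocytes. The biological coefficient of variation, a common value for all genes of a fit, was 1.23 to 1.71. The size of a detectable change differed by gene. In the PTX tests the SE ran from 0.25 for Mmp2 in fibroblasts to 3.58 for Mmp3 in keratinocytes.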
